A study of Mus musculus with 6 samples.

Results

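Tnnt3, Tnni2, Tnnc2, Tpm1, Tpm2, Myl1 and Mylpf encode the fast troponin subunits, tropomyosins of skeletal muscle and fast myosin light chains. They are called the fast genes below as the name of the set. For Tpm1 and Tpm2 the name does not mean expression in fast fibers alone. These 7 genes, of 21938 protein-coding gene entries in the GENCODE annotation of GRCm38, were taken as a named set and not by any measured value. For each gene, all Maf peaks and H3K27ac regions were collected that lay inside the gene or within 50 kb of the start of one of its protein-coding transcripts. Such a stretch is called the region of the gene below and was up to 110.1 kb long. The ChIP-seq samples came from nuclei of the gastrocnemius and quadriceps of wild-type mice aged 2 months, 2 for Maf, 2 for H3K27ac and 2 for input, and the labels give those of a target as biological replicates. No mutant or treated muscle is among them, so the comparisons are between genes and between the lists of the replicates.

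In striated muscle, calcium released into the cytoplasm binds troponin C, which relieves the block that troponin I places on actin. Troponin T ties the complex to tropomyosin, a coiled coil that lies along the actin filament and moves away from the myosin binding sites. Myosin carries an essential and a regulatory light chain on the neck of each head. Fast and slow fibers use mostly different members of these families, and the fast fibers dominate in mouse gastrocnemius and quadriceps. Maf is a bZIP transcription factor that binds DNA as a dimer, and the core of each side of its palindromic site reads TGCTGA, usually followed by C. H3K27ac is the acetylation of histone H3 at lysine 27, found at active promoters and enhancers.

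The Maf list of replicate 1 held 74 peaks of 181 bp and that of replicate 2 held 5467 peaks of 281 bp, which merged into 5486. The H3K27ac lists held 44887 and 44987 regions with medians of 1476 and 1499 bp. The lists give positions with no read counts, so depth is unknown, and a value rests on 1 or both lists rather than on a mean with an error. The place of a peak in its list is given below as a possible guide to strength only, since the list does not state how it was ordered. All 7 muscle fiber markers looked up had H3K27ac at or within 1 kb of their start in each list. It was also found at 4 of 4 endothelial, 4 of 4 fibro-adipogenic, 4 of 4 macrophage and 3 of 3 smooth muscle markers in each list, and on 3 and 4 of 4 satellite cell and 1 and 2 of 3 Schwann cell markers in replicates 1 and 2. Of 6 markers of other organs, 5 lacked it in both (Alb, Apoa2, Ttr, Snap25 and Syt1). The nuclei were mixed, and marks of muscle fibers and of other cells cannot be told apart at a given position.

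All 7 fast genes had at least 1 Maf peak in their region, against 31.2% of all protein-coding genes. Among the 12893 genes with H3K27ac within 1 kb of a start, to which the 7 belong, the share was 42%. With 10 kb in place of 50 kb around starts, 4 of the 7 genes (Tnnt3, Tpm2, Myl1 and Mylpf) had a peak, against 16% of all genes. The 12 peaks comprised 5 at Myl1, 2 at Mylpf and 1 at each of Tnnt3, Tnni2, Tnnc2, Tpm1 and Tpm2, so 2 of 7 genes had 2 or more, against 10.4% of all genes and 15.1% of those with H3K27ac at a start. A fast gene had the nearest protein-coding start for 9 of the 12 peaks, which made 5 of 7 genes the nearest gene of some peak, against 17.5% of all genes and 24.7% of those with the mark. Only Myl1 had a Maf peak centred within 1 kb of a start (1 of 7 genes, against 4.8% of all genes and 7.96% of those with the mark). Relative to the 5′ end of the gene, 8 peaks lay upstream, 2 inside the gene and 2 past its 3′ end. In the replicate 1 list 1 of the 12 was present, the peak upstream of Tnni2, and the other 11 rest on the replicate 2 list alone. With 74 peaks in the replicate 1 list, most of the 5467 peaks of replicate 2 at any genes could not be in both.

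**Figure D1:**
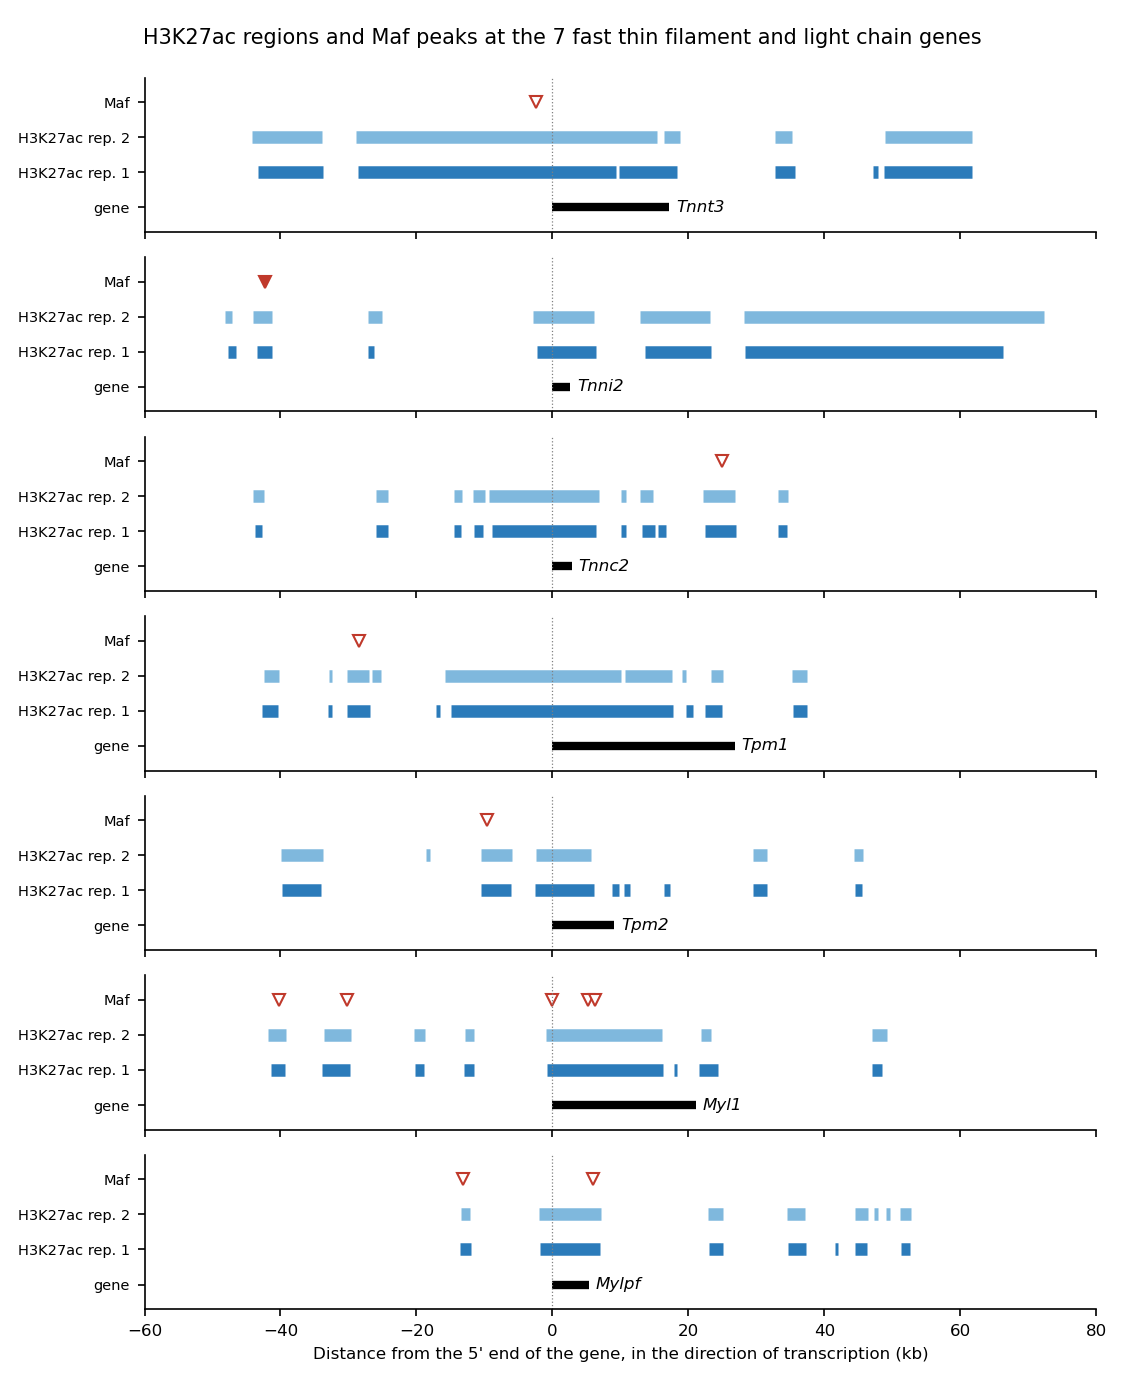
Positions of H3K27ac regions in each replicate (bars) and of Maf peaks (triangles, filled where the peak is in both Maf lists) at the 7 genes, in kb from the 5′ end of each gene in the direction of transcription. H3K27ac regions that reach into the gene's region are drawn at full length. A broad H3K27ac region covers the 5′ end of every gene in both replicates, and of the 12 Maf peaks 5 stand inside such a region, 3 of them at Myl1.

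Myl1 encodes the fast essential light chains MLC1f and MLC3f, which are made from an upstream and an internal promoter of the same gene (chr1:66924295-66945404, reverse strand, GRCm38). It carried more Maf peaks than any of the other 6 genes, all in the replicate 2 list and none in the replicate 1 list. One peak, chr1:66945313-66945593, was centred 69 bp upstream of the nearest start of a protein-coding transcript, at place 1991 of 5467. That start, at 66945384, belongs to a transcript with 5 exons. The transcript with 7 exons starts further downstream, at 66945143, outside the peak. Both intragenic peaks fell in intron 1 of the annotated transcript with 7 exons, which begins at the upstream promoter. They lay 5252 and 6307 bp downstream of the 5′ end, and 4515 and 3460 bp upstream of the nearest start of the internal promoter. Their places in the list, 466 and 640, were ahead of that of the promoter peak. The other 2 peaks were upstream of the gene, at 40161 bp (place 2203) and 30266 bp (place 5355), between protein-coding genes, and Myl1 had the nearest start for both.

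The promoter and intron peaks of Myl1 are shown because each holds a Maf core and a match to the A/T-rich site of Mef2, a muscle transcription factor, both in capitals. All are written 5′ to 3′ on the strand of the gene. The promoter peak reaches into the 5′ exon of GENCODE and that of a predicted RefSeq transcript, so its upstream 98 bases (chr1:66945496-66945593) and 30 bases around the Maf core (chr1:66945468-66945497) are given separately, and the intron peaks (chr1:66940012-66940292 and chr1:66938957-66939237) in full.
Myl1 promoter, upstream part: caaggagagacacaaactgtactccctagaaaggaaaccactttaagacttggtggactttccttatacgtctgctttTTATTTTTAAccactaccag
Myl1 promoter, Maf core: agtgacctcttTGCTGACcaacattttctt
Myl1 intron, +5252: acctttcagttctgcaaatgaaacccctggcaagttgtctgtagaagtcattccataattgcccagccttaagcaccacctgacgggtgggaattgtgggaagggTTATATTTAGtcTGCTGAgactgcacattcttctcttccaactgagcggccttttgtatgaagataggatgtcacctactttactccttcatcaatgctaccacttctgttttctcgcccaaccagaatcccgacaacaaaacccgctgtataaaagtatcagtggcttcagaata
Myl1 intron, +6307: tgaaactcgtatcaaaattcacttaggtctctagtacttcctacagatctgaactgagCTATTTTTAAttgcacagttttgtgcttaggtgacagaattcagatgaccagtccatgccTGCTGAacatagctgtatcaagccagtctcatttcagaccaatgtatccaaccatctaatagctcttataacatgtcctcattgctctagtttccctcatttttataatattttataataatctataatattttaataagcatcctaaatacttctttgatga

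In the intron peak at +5252 the Mef2 site TTATATTTAG and the Maf core TGCTGA stood 2 bases apart. In the promoter peak 19 bases lay between the Mef2 site and the Maf core, and in the intron peak at +6307 the gap was 50 bases. The order of the pair was the same in all 3 peaks, with the Mef2 site first on the strand of the gene and the Maf core centred 30.5, 20.5 and 19.5 bases upstream of the peak centre. A peak with both TGCTGA and a Mef2 site was found 3 times among the 12, all at Myl1, against 215 of 5485 Maf peaks (3.92%). The pairing was counted after the sites had been seen. The promoter and both intron peaks sat in 1 unbroken H3K27ac region that spanned all 5 annotated starts, 17.1 kb long in each replicate.

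Tnnt3 encodes fast troponin T (chr7:142498836-142516009, forward strand). Its peak lay upstream of the gene and was the highest of the 12 in the replicate 2 list, at place 179 of 5467, while it was not in the replicate 1 list. Just beyond the region of Tnnt3 lay further peaks. At 53.9 and 57.3 kb downstream of the nearest Tnnt3 start, 2 Maf peaks (places 669 and 1287) lay in an H3K27ac region of 12.9 kb in replicate 1 and 12.8 kb in replicate 2 whose near edge was inside the 50 kb limit. The nearest protein-coding start for both was that of Mrpl23, a mitochondrial ribosomal protein gene, and the first of them held TGCTGAC. Another peak, at 98.9 kb and place 110, had Igf2 as its nearest start.

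Tnni2 encodes fast troponin I, the inhibitory subunit, and neighbours Tnnt3 on the same strand (chr7:142441808-142444410). Its peak, chr7:142399369-142399649, was the only one of the 12 found in both Maf lists, at place 65 of 74 in replicate 1 and 407 of 5467 in replicate 2. It was also far from the gene, 42299 bp upstream, and nearer to Ctsd, the cathepsin D gene, whose start lay 11471 bp away. The sequence is printed since 2 libraries support the peak. It held no TGCTGA but an AP-1 site, TGAGTCA, which on either strand forms the middle of 1 type of Maf palindrome, and a MEF3 site, TCAGGTT, the element of sine oculis homeobox factors. Both are in capitals, on the forward strand.
Tnni2 distal peak: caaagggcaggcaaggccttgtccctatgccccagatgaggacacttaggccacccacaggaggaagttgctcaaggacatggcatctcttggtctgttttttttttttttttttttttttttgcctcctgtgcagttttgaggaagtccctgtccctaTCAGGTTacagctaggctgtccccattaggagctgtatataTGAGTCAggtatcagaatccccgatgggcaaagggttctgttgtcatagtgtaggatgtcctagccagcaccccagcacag

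Tnnc2 encodes fast troponin C, the calcium sensor (chr2:164777161-164779967, reverse strand). Its single peak, chr2:164754850-164755130, lay 22171 bp past the 3′ end of the gene, in an intron of Dnttip1, whose start was the nearest at 8959 bp. It stood at place 2015 in replicate 2 and was not in the replicate 1 list. No TGCTGA was present. A part of 60 bases (chr2:164754980-164755039, strand of Tnnc2) is shown with 2 motif matches in capitals, which stand 2 bases apart. They are a Mef2 site and an E-box CAGCTG, the site of MyoD and the other myogenic bHLH factors.
Tnnc2 distal peak, part: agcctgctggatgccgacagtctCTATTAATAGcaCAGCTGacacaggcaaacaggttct

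Tpm2 encodes beta-tropomyosin (chr4:43514711-43523765, reverse strand). The peak chr4:43533177-43533457 was centred 9552 bp upstream of its 5′ end, inside coding exon 53 of the 57 exons of Tln1, the talin gene, yet Tpm2 had the nearest start. Its place was 809 in replicate 2, and it was not in the replicate 1 list. It held the longer core TGCTGAC and 1 of the 2 matches among the 12 peaks to the full Maf palindrome with at most 2 mismatches. The core is in capitals, written on the strand of Tpm2, where it reads GTCAGCA.
Tpm2 upstream peak: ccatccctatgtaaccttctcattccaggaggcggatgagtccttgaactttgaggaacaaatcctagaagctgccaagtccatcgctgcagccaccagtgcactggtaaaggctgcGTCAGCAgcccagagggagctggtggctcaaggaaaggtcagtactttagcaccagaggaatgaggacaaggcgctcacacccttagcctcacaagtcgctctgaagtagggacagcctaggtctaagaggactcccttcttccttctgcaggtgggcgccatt
The proximal promoter of Tpm2 also held a TGCTGAC, 157 bp upstream of the RefSeq start, with no Maf peak over it in either list (the nearest Maf peak centre was 9605 bp away). In GENCODE the site lies downstream of the 5′ end of the gene (43523765), and 27 of the 30 bases shown around it are annotated as untranslated. Its 10 bases TGCTGACCAA are the same as those of the Myl1 promoter peak. The 30 bases around it (chr4:43523693-43523722) are shown on the strand of Tpm2 for comparison with the Myl1 promoter.
Tpm2 promoter, no Maf peak: cttgtggcctcTGCTGACcaaggtttttac

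Mylpf encodes the phosphorylatable fast regulatory light chain (chr7:127208890-127214298, forward strand). One of its peaks, chr7:127214694-127214974, was centred 536 bp past the 3′ end of the gene, in the last coding exon of Sept1 on the other strand, at place 1873. Mylpf had the nearest start at 2155 bp. The other, chr7:127195584-127195864, was centred 13166 bp upstream and 151 bp from a start of Cd2bp2, a gene of the splicing machinery, in an untranslated exon of that gene, at place 3863. Neither was in the replicate 1 list and neither held TGCTGA. Part of the first peak (chr7:127214830-127214859, forward strand) is shown with its E-box in capitals.
Mylpf 3′ peak, part: ttgcatgcggcgCAGCTGtgcggagcaaga

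Tpm1 encodes alpha-tropomyosin, with muscle and non-muscle forms made from several promoters (chr9:67022590-67049406, reverse strand). The peak in its region, chr9:67077701-67077981, was 28435 bp upstream and at place 3898, the lowest place of any gene's highest peak among the 7. Tpm1 was nonetheless the nearest gene of 4 Maf peaks. The other 3 were beyond the 50 kb limit, at 88.0, 91.2 and 112.0 kb upstream, and stood higher in the list, at places 338, 1700 and 1181. Each overlapped H3K27ac in both replicates, and the one at 88.0 kb held TGCTGAC. At Tpm1 the limit of 50 kb therefore left out the peaks that stood highest.

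Over the 7 genes, the places of the 12 peaks in the replicate 2 list ran from 179 to 5355 with a median of 1932, and 3 were among the first 546. The genes overlapped in place: the lowest peak of Myl1 stood behind that of every other gene, and its highest was behind those of Tnnt3 and Tnni2 only. A distant peak could stand high, since that of Tnni2, 42.3 kb from the gene, was behind only that of Tnnt3.

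**Figure D2:**
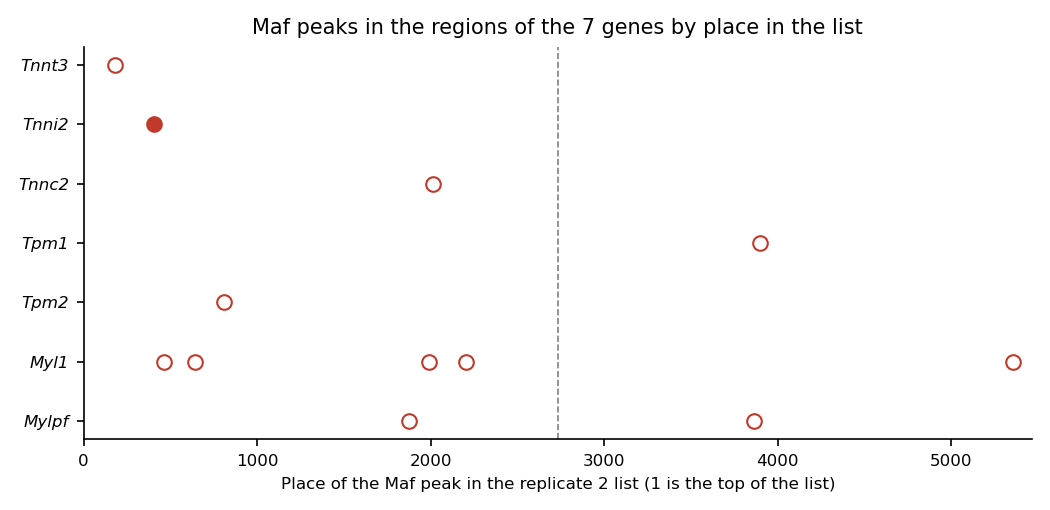
Place of each of the 12 Maf peaks in the replicate 2 list of 5467, with 1 row per gene. The filled point, at Tnni2, is the peak also found in the replicate 1 list, and the dashed line marks the middle of the list, with 9 points before it.

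All 12 peaks overlapped an H3K27ac region in both H3K27ac lists, against 63.3% of all Maf peaks. These regions were of very different sizes. The Cd2bp2 promoter peak lay in regions of 1550 and 1368 bp, and the Tnnt3 peak in regions of 37937 and 44266 bp.

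H3K27ac within 1 kb of a start was found for 7 of 7 fast genes in both lists, against 58.8% of all genes. Each of their 41 annotated protein-coding starts lay inside an H3K27ac region in both lists. The same share over all starts was not counted. Starts of a gene are not separate cases, since the 16 of Tpm1 lay in 1 region in each list. The region over a start was long. At Tnnt3 it spanned 37.9 kb in replicate 1 and 44.3 kb in replicate 2, which ranked 11 of 44887 and 6 of 44987 by length. It began 28.6 and 28.9 kb upstream of the gene. On that side lies Lsp1, which also had H3K27ac within 1 kb of a start, so this length cannot be assigned to Tnnt3 alone. At Tpm1 the region over a start spanned 32.5 kb in replicate 1, ranking 20, and 25.9 kb in replicate 2, ranking 45. In replicate 2 the same stretch was split by a short gap into that region and one of 6.85 kb. Myl1 had 17.1 kb in each and Tnnc2 15.4 and 16.2 kb. The regions of Tnni2 (8.70 and 9.01 kb), Tpm2 (8.67 and 8.19 kb) and Mylpf (8.82 and 9.21 kb) were of about the same length and ranked from 820 to 1075. Thus every gene had a start region above 93.7% of those of the other genes with such a region, in each list, and the order of Tnnt3 and Tpm1 before the other 5 was the same in both. The median of the 7 was 15.4 and 16.2 kb, against 9.35 and 10.1 kb over 21 other sarcomere genes. Single genes of that list overlapped the 7, since Myh4 (23.8 and 20.1 kb) and Myom2 (22.2 and 21.1 kb) were behind only Tnnt3 and Tpm1.

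These regions covered most of each gene. The gene body lay inside H3K27ac to 100% in both lists for Tnni2, Tnnc2 and Mylpf, and to 97.0% and 94.1% for Tnnt3. The share was 79.7% and 76.4% for Myl1, 78.8% and 72.0% for Tpm1 and 70.6% and 63.0% for Tpm2. Over all protein-coding genes the median was 3.09% in replicate 1 and 3.17% in replicate 2, and over the 21 other sarcomere genes it was 46.1% and 45.9%, with a highest value of 100% in both. Gene length differed, and Tnni2, Tnnc2 and Mylpf were the shortest of the 7, at 2.60, 2.81 and 5.41 kb. Among the 21, Acta1, Tmod4, Tcap and Myoz1, from 1.14 to 7.43 kb long, were also at 100%. Neb, of 241.8 kb, had 13.8% and 14.1%. Of the whole region of the gene, H3K27ac covered 63.8 and 63.4 kb at Tnnt3, more than at 99.7% and 99.6% of all genes. Tnni2 had 45.5 and 48.4 kb and Tpm1 45.1 and 44.5 kb, followed by Myl1 with 30.9 and 30.6 kb, Tnnc2 with 30.2 and 31.5 kb, Tpm2 with 24.6 and 22.9 kb and Mylpf with 18.6 and 19.9 kb. Tpm2 was above 91.4% and 88.7% of all genes, and Mylpf, the lowest, above 84.8% and 85.4%. The medians over all genes were 5.39 and 5.40 kb, and those over genes with H3K27ac within 1 kb of a start 9.55 and 9.83 kb. The 7 fast genes had medians of 30.9 and 31.5 kb, below those of 21 other sarcomere genes such as Acta1 and Ttn, at 35.5 and 34.7 kb. Some regions of the 21 were far longer, up to 328.6 kb at Ttn and 301.9 kb at Neb, so covered kb did not compare equal lengths. As a share of the region the medians were close. That of the 7 was 30.2% in replicate 1 and 31.5% in replicate 2 (Tnnc2). That of the 21 was 30.9% in replicate 1 (Acta1) and 32.3% in replicate 2 (Lmod3). The lists differed by 0.339 (Myl1) to 2.85 kb (Tnni2) at a gene. Myl1 and Tnnc2 changed places between the lists, Tnni2 and Tpm1 were closer in replicate 1 than the lists were at Tnni2, and the other 3 genes kept their ranks with wider gaps. The base pairs covered in both lists made up 81.8% (Tpm2) to 93.1% (Tnnt3) of those covered in either.

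Tnni2 and Tnnt3 are 57028 bp apart by their 5′ ends with Lsp1 between them, and their regions shared 44.3 kb of sequence, 33.7 kb of it in H3K27ac. No Maf peak lay in the shared stretch. The coverage of these 2 genes is therefore counted in part on the same DNA, and the region of a gene can include marks of its neighbours.

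Most slow and cardiac paralogs had less of the mark over the gene itself. Among the 7 slow paralogs, 4 had H3K27ac within 1 kb of a start (Tnnc1, Tpm3, Myl3 and Myl6b). The gene bodies of Tnnc1, slow and cardiac troponin C, and of Myl2, the slow regulatory light chain, had 0% inside H3K27ac in both lists. Tnni1, slow troponin I, had 6.38% and 6.32%, and Tnnt1, slow troponin T, had 19.5% and 20.4%. Tpm3, the slow tropomyosin, had 15.6% and 15.0% and Myl3, the slow essential light chain, 11.1% and 5.54%. Myl6b was the highest slow paralog, at 47.9% and 44.6%, below the lowest of the fast genes in each list. The H3K27ac region over its start, 8.03 and 7.85 kb long, was nearly as long as that of Tpm2, and the gene lies beside Myl6. Of the cardiac and developmental paralogs, Tnnt2, Tnni3 and Myl7 had 0% and Myl4, the atrial and embryonic light chain, 17.5% and 21.8%. The non-muscle and smooth muscle paralogs overlapped the fast genes, since Myl6 and Myl12a were at 100% in both lists. By covered kb of the whole region the slow paralogs overlapped the fast genes as well. Their medians were lower, at 15.0 and 16.7 kb, but Tnnc1 had 35.5 and 34.2 kb, above the medians of the fast genes. Myl6b (27.3 kb in each list) and Tnni1 (21.7 and 22.9 kb) were above Mylpf. Among the non-muscle and smooth muscle paralogs, with medians of 23.9 and 23.6 kb, Myl12a had 43.3 and 41.5 kb.

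**Figure D3:**
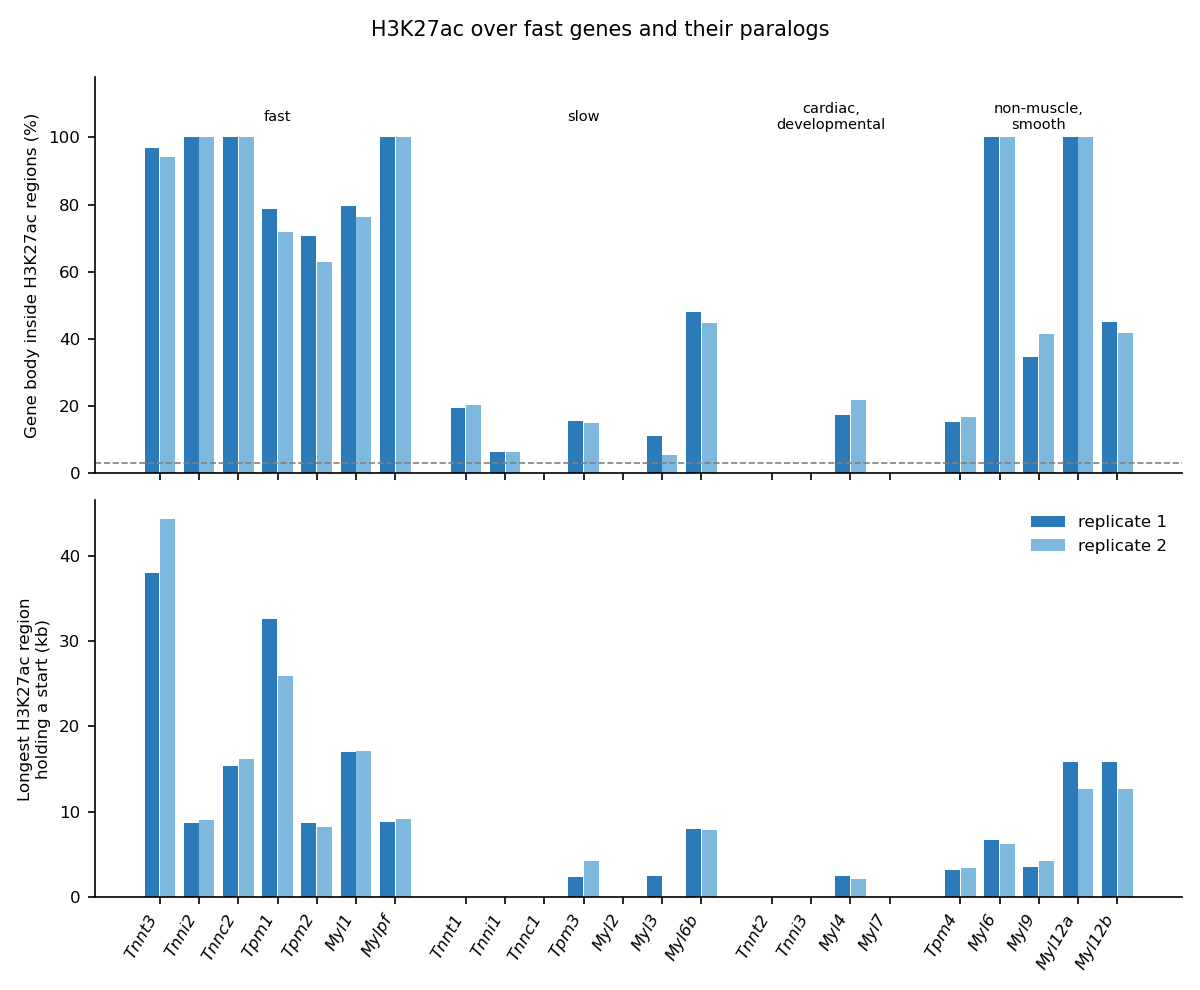
Share of the gene body inside H3K27ac regions (upper panel, %) and length of the longest H3K27ac region that holds a start (lower panel, kb) for the 7 fast genes and, to their right, the slow, cardiac and developmental, and non-muscle and smooth muscle paralogs, with 1 bar per replicate. The dashed line is the median over all protein-coding genes in replicate 1, and for Myl12b the higher of its 2 gene entries is drawn. The fast genes lie between 63.0% and 100%, and the slow paralogs between 0% and 47.9%.

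By nearest gene, the fast genes were the nearest gene of a peak in 5 of 7 cases, and the slow paralogs in 0 of 7 and the cardiac and developmental ones in 0 of 4. Myl6, in the non-muscle and smooth muscle list, was the only such gene of 5. By region, all 7 fast genes had a peak, against 4 of 7 slow paralogs (Tnni1, Tnnc1, Myl2 and Myl6b), 1 of 4 cardiac and developmental (Myl7) and 3 of 5 non-muscle and smooth muscle (Myl6, Myl12a and Myl12b). None of these 16 genes had a Maf peak within 1 kb of a start, as was true of all fast genes except Myl1. Thick filament, thin filament and Z-disc genes such as Acta1, Myh4, Neb and Ttn formed a further list of 21. Of these, 20 had a Maf peak in their region, 18 were the nearest gene of one and 7 had one within 1 kb of a start, so the shares of the fast genes were not higher than those of this list by any of these counts except the first. Likewise 14 of the 21 had 2 or more peaks, against 2 of the 7 fast genes.

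**Figure D4:**
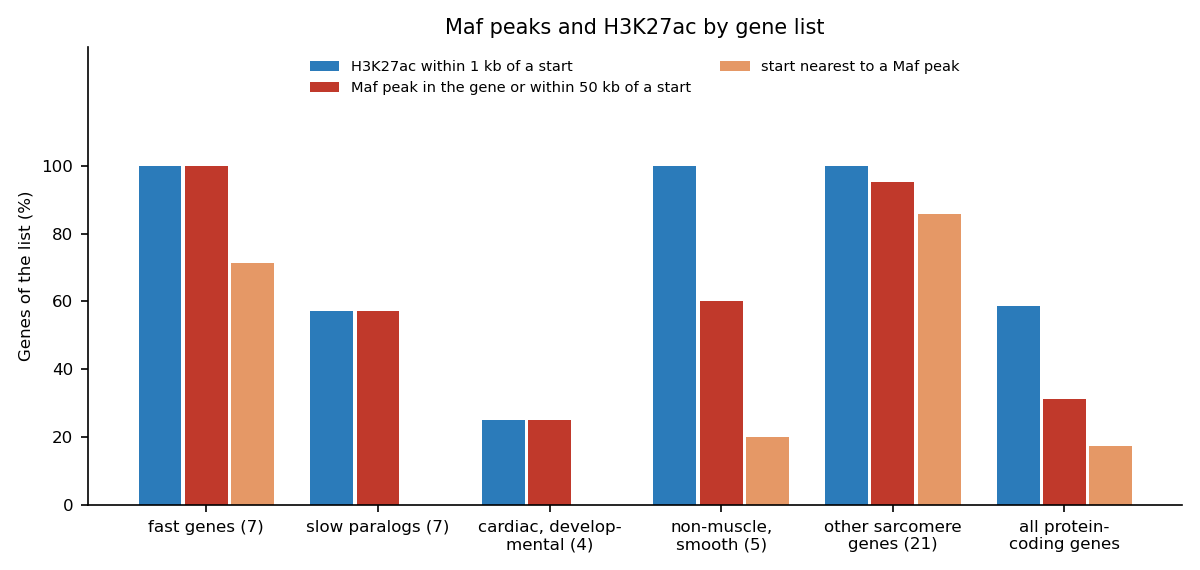
Percentage of genes with H3K27ac within 1 kb of a start, with a Maf peak in the gene or within 50 kb of a start, and with the nearest start of a Maf peak, for the 7 fast genes, the paralog lists, 21 other sarcomere genes and all 21938 protein-coding genes. The fast genes are at 100%, 100% and 71.4%, and all genes at 58.8%, 31.2% and 17.5%.

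Motifs in the 12 peaks were searched on both strands, and their shares are given beside those over 5485 Maf peaks of the merged list. The core TGCTGA was in 6 of the 12, against 50.8% of all peaks, and the longer TGCTGAC, which contains it, in 2, against 22.7%. Those 2 were the Tpm2 peak and the Myl1 promoter peak. An AP-1 site (TGANTCA) was in 1, against 14.8%. Neither TGCTGA nor TGANTCA was found in 5 peaks, those of Tnnc2 and Tpm1, the Myl1 peak at 40.2 kb and both Mylpf peaks, against 43.6%. Maf sites were thus about as frequent at the fast genes as in the list as a whole.

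A Mef2 site was in 4 of the 12 peaks, at Tnnc2 and in the promoter and intron peaks of Myl1, against 7.68% of all Maf peaks. The E-box CAGCTG was in 4 peaks, those of Tnnc2, Tpm1 and Mylpf (the 3′ peak) among them, against 24.2%, and CACCTG in 3, against 18.4%. Counting every E-box CANNTG, which includes both, 9 of 12 had one, against 78.0%. The MCAT element of Tead factors, CATTCC, was in 4, against 15.2%, TCAGGTT in 2, against 5.10%, the nuclear receptor element AGGTCA in 4, against 20.8%, and the Sp1 box GGGCGG in 1, against 15.0%. The CArG box of serum response factor was in 0 of the 12 and in 1.64% of all peaks. With 12 peaks at 7 genes, 5 of them at Myl1, these counts describe the peaks and were not tested.

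**Figure D5:**
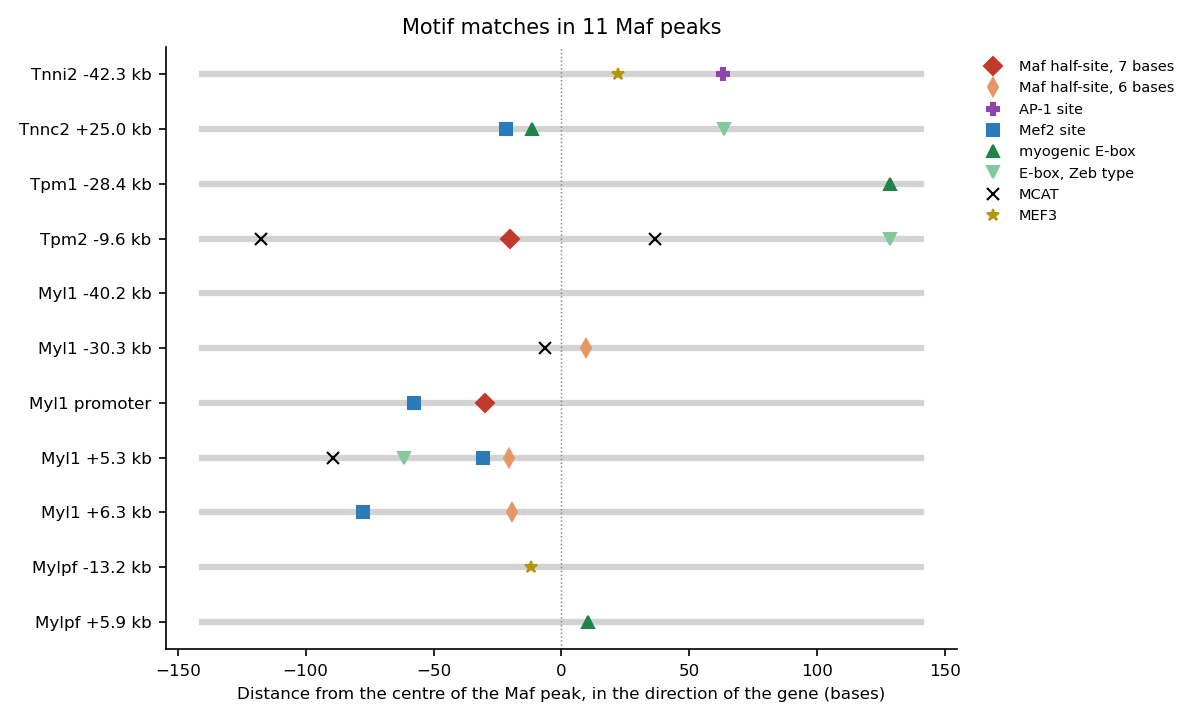
Positions of motif matches in 11 of the 12 Maf peaks (all but that of Tnnt3), in bases from the peak centre in the direction of the gene, with peaks named by gene and distance of their centre from the 5′ end. Grey bars are the peaks of 281 bp. Mef2 sites stand beside Maf cores in 3 peaks of Myl1, and the Myl1 peak at 40.2 kb holds none of the motifs drawn.

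The proximal promoters of Tnnc2, Tpm1, Tpm2, Myl1 and Mylpf were matched to RefSeq windows of 300 bases around a start in GRCm38, most of them upstream. All 5 were inside H3K27ac over their whole length in both lists, and no Maf peak overlapped any of them, since the Myl1 promoter peak lay just upstream of its window. TGCTGAC was in 1 of the 5, that of Tpm2, and in 4.67% of 32851 RefSeq promoters. CAGCTG was in 3, those of Tpm2, Myl1 and Mylpf, against 16.3%. None of them held a Mef2 site or a CArG box, against 3.19% and 1.63%. CATTCC was in those of Tpm1 and Myl1, against 14.7%, and GGGCGG in those of Tnnc2, Tpm1 and Tpm2, against 35.7%.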

How the data were processed

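Maf and H3K27ac ChIP-seq of adult mouse muscle was analysed from the peak lists of 4 samples, and the input samples were not used here. The submitters' processing notes name Bowtie2 2.3.2, Picard 2.10.3, HOMER and the build mm10 (GRCm38). The paper gives a false discovery rate for its number of Maf peaks, and other settings of the peak caller, its use of the input and the handling of replicates are not given in the sources used here. In the deposited lists the score of the authors is 1 for every interval, so no peak height was available and no test was run. All 95397 intervals on chromosomes 1 to 19, X and Y lay within GRCm38 chromosome lengths, and 18 lay on unplaced sequences. Lists of a target were merged, overlap needed 1 base, and gene models came from GENCODE M21 (54446 starts of protein-coding transcripts). Motifs were searched on both strands of GRCm38, and interval and motif functions were tested on simulated data. Python 3.11.15, pysam 0.24.0 and matplotlib 3.10.9 were used. The named genes are the 7 fast genes, genes of the paralog and sarcomere lists with a Maf peak in their region, and genes whose start was nearer to one of the peaks than a fast gene's. The paralogs without a Maf peak and Mrpl23, Igf2, Lsp1, Tln1 and Sept1 were named after their values or positions were seen. The genes and lists were chosen with earlier results of these data known. Alternatives covered the window, the starts used, the motif and each list left out. The sequence of 1 peak is not reported here.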

Additional observations from a re-analysis of the deposited data

How the results depend on the processing

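Of the 57 comparisons of a count or median over the 7 genes with its value under an alternative, 40 stayed within the limits set for a change and 17 did not. The 40 were not all equal to the main value. By nearest start, 5 in place of 7 genes had a peak and 3 in place of 2 peaks held TGCTGAC. With the starts of all annotated transcripts there were 14 peaks in place of 12. With 10 kb around starts in place of 50 kb, 4 of the 7 genes had a Maf peak, against 16% of all genes, with 6 peaks in all, each on H3K27ac. With 100 kb there were 21 peaks, 21 of them on H3K27ac and 5 with TGCTGAC. Genes with a Maf peak near a start numbered 2 with the starts of all annotated transcripts and 3 within 2.5 kb, against 1 within 1 kb. Searching TGCTGA in place of TGCTGAC gave 6 peaks in place of 2. Leaving out 1 Maf list gave 1 to 7 genes with a peak, 1 to 12 peaks, as many on H3K27ac, 0 to 1 genes with a peak within 1 kb of a start and 0 to 2 peaks with TGCTGAC. The lower value is in each case the list of replicate 1, which held 74 peaks. Using only transcripts of the basic GENCODE set, an alternative chosen after seeing the data, moved none of the 5 results it was run for beyond those limits. The median coverage by H3K27ac was 33.1 kb in the merged lists, 28.7 kb for bases in both lists, and 30.9 to 31.5 kb with 1 list left out. The labels do not say whether equal replicate numbers of Maf, H3K27ac and input share chromatin. No paired analysis was made, since no test was run. The lists hold called intervals with no depth, so a peak that is missing from a list was not called there, and how far below the caller's limit it lay is unknown.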
